A study of Mus musculus with 21 samples.

Results

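Dyrk4, Wdr95 and Sgk1 are 3 of the 17516 gene symbols counted in single mouse CD8 T cells before and during culture with interleukins. They were chosen by their measured values on day 10 against day 3 in these same libraries, where they held the first, the second and the fourth place among 52 genes past a size rule, so those differences are given here as a description and support nothing. The cells came from OT1 mice, which carry a transgenic T cell receptor for an ovalbumin peptide. One library held naive cells of day 0, and 20 libraries held cells stimulated with anti-CD3/anti-CD28 beads. Of these, 2 received no cytokine and were taken on day 3 and day 5. The other 18 were cultured with IL-2, IL-2v or IL-15 at 5 or 50 IU/mL and taken on day 3, day 5 or day 10, with 1 library per condition. The labels call IL-2v a mutant IL-2 (IL-2bg). For 6 libraries the treatment label disagreed with the title, namely Interleukin-3 for IL-2 at 50 IU/mL and Interleukin-16 for IL-15 at 50 IU/mL, and the titles were followed. No condition was repeated, so no difference has a replicate check, and all 95% intervals below cover counting error only. Intervals apart were not counted over all genes, so such counts below have no background and only describe the members.

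Sgk1 encodes serum- and glucocorticoid-regulated kinase 1, a relative of the AKT kinases that is activated by PDK1 and the mTORC2 complex downstream of PI3K. SGK1 phosphorylates FOXO transcription factors and the ubiquitin ligase NEDD4L, and in T cells it is known for its part in helper cell and memory cell differentiation. Dyrk4 encodes a member of the DYRK family, kinases that phosphorylate a tyrosine of their own activation loop and serines and threonines of other proteins. Wdr95 encodes a protein with WD repeats, which fold into propeller-shaped scaffolds for other proteins. IL-2 and IL-15 signal through the same beta and gamma receptor chains and activate STAT5, and IL-2 also binds a private alpha chain.

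The deposited tables name genes by symbol. In the GENCODE M21 annotation of GRCm38, Dyrk4 lies on the minus strand at chr6:126876020-126921839, Wdr95 on the plus strand at chr5:149528679-149611894 and Sgk1 on the plus strand at chr10:21882184-21999903, and all 3 are protein coding. No exonic base of Dyrk4, Wdr95 or Sgk1 is shared with another annotated gene. The RefSeq promoter table (GRCm38.p6) holds 1 start site for Dyrk4 and 6 for Sgk1. The windows below are the 250 bases before 1 start site of Dyrk4 and before 2 of Sgk1, shown because the genes were chosen for a shared direction by day and because Sgk1 is named for its response to glucocorticoids. They were searched on both strands for STAT5 (TTCNNNGAA), FOXO (TGTTTAC), KLF (CCACCC), AP-1 (TGANTCA), E-box (CANNTG) and ETS (ACCGGAAG) letters and for the glucocorticoid receptor motif. Capitals mark every match.
Dyrk4, minus strand, chr6:126921840-126922089: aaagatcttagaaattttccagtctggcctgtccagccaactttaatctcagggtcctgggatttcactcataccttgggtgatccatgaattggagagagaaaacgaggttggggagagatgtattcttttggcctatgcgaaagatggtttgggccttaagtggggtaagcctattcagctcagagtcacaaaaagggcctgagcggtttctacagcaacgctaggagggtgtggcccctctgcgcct
Sgk1, plus strand, chr10:21993640-21993889: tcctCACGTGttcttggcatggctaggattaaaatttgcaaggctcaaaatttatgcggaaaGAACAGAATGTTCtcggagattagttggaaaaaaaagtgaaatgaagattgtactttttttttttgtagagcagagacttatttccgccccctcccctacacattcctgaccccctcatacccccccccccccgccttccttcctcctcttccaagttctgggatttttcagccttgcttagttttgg
Sgk1, plus strand, chr10:21881934-21882183: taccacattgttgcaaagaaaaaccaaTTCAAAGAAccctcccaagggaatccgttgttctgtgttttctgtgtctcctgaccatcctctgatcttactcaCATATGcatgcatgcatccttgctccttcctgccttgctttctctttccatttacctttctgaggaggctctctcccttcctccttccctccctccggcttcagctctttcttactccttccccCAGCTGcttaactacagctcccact

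The Dyrk4 window held none of the 7 motifs. The first Sgk1 window printed held a match to the glucocorticoid receptor motif, starting 188 bases before the start site, and an E-box. That motif was present in 0.387% of the 32851 promoter windows of the same length, against 66.2% for the E-box letters. The second Sgk1 window held STAT5 letters 223 bases before its start site, which 7.02% of all windows held, and 2 E-boxes. Of the other 4 Sgk1 windows, 1 held KLF letters, present in 28.1% of windows, and 3 held no match. FOXO letters were in 3.17% of windows, AP-1 letters in 6.75% and ETS letters in 1.72%. A match describes letters in a window and is no evidence of binding.

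The libraries held 3250 to 7105 cells and 10589950 to 32648496 unique molecular identifiers (UMIs, tags that mark single RNA molecules), with median depths of 3016 to 5065 UMIs per cell. The T cell genes Cd3d, Cd3e, Cd3g, Cd8a and Cd8b1 were each at 134 CPM (counts per 1000000 UMIs of the library) or more in every library. Cd4 reached at most 4.39 CPM, the B cell gene Ms4a1 at most 0.0541 CPM, and the myeloid genes Lyz2 and Csf1r reached at most 0.541 and 0.433 CPM. Other listed markers were higher, namely the B cell gene Cd79b at 1.47 to 17.1 CPM, the myeloid gene Cst3 at 61.0 to 126 CPM and the NK gene Klrb1c at 0 to 36.7 CPM, the last on day 10 with IL-2v at 50 IU/mL. Their part in the results was not tested. The library of day 5 with IL-2 at 50 IU/mL was the smallest in cells and UMIs. Pairs of libraries shared at most 19 barcodes.

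Dyrk4 was almost absent from naive and early cells and differed widely between the cytokine conditions on day 5 and day 10. In naive cells it was at 0.596 CPM, from 11 UMIs. On day 3 it was at 0 CPM with IL-2 at 5 IU/mL (0 UMIs), 0.242 with IL-2 at 50, 0.386 with IL-2v at 5, 1.23 with IL-2v at 50, 0.272 with IL-15 at 5, 0.660 with IL-15 at 50 and 0.0449 CPM without cytokine (1 UMI). No day 3 library had an interval wholly above the naive one. On day 5 it was at 0.0998 CPM with IL-2 at 5 IU/mL, 0.567 with IL-2 at 50, 9.98 with IL-2v at 5, 3.21 with IL-2v at 50, 2.58 with IL-15 at 5 and 8.93 CPM with IL-15 at 50. No UMI of Dyrk4 was found on day 5 without cytokine, a count that allows up to 0.117 CPM. The 4 libraries with IL-2v or IL-15 therefore stood above both IL-2 libraries and above the cytokine-free library on day 5, with no overlap of their intervals. On day 10 it was at 51.3 CPM (48.9 to 53.9) with IL-15 at 50 IU/mL, 43.0 (40.8 to 45.3) with IL-2v at 5 and 27.5 CPM (25.7 to 29.5) with IL-2 at 5. The other day 10 libraries were at 9.31 CPM (8.11 to 10.6) with IL-15 at 5, 5.39 (4.55 to 6.33) with IL-2v at 50 and 0.550 CPM (0.308 to 0.907) with IL-2 at 50. The last value, from 15 UMIs in 4937 cells, overlapped the naive interval of 0.297 to 1.07 CPM. From the highest to the lowest day 10 library the level of Dyrk4 spanned 93.4 times, and no neighbours among those 6 overlapped. Over the 6 cytokine libraries of day 5 it spanned 100.1 times, where the lowest of them held 2 UMIs.

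Wdr95 was present at a low level in naive cells, was lower on day 3 and was highest with IL-2 and with the higher dose of IL-2v on day 10. The naive level was 5.25 CPM (4.26 to 6.41) from 97 UMIs. On day 3 it was at 1.66 CPM without cytokine, 1.96 with IL-2 at 5 IU/mL, 0.666 with IL-2 at 50, 1.45 with IL-2v at 5, 2.54 with IL-2v at 50, 2.72 with IL-15 at 5 and 2.55 CPM with IL-15 at 50. All 7 day 3 libraries lay below the naive interval. On day 5 it was at 3.78 CPM without cytokine, and the 6 cytokine libraries ran from 6.59 CPM with IL-15 at 5 IU/mL through a median of 8.63 to 12.1 CPM with IL-15 at 50. On day 10 it was at 55.0 CPM (52.3 to 57.7) with IL-2 at 5, 42.9 (40.4 to 45.4) with IL-2v at 50 and 33.5 CPM (31.4 to 35.8) with IL-2 at 50. The other 3 were at 20.4 CPM (18.9 to 22.0) with IL-2v at 5, 19.8 (18.3 to 21.4) with IL-15 at 50 and 5.06 CPM (4.19 to 6.06) with IL-15 at 5. The NK marker Klrb1c was highest in the same 3 libraries as Wdr95, at 22.0 CPM with IL-2 at 5 IU/mL, 36.7 with IL-2v at 50 and 21.3 CPM with IL-2 at 50, against 0 to 3.31 CPM in the other day 10 libraries. The NK receptor gene Ncr1 was at 0 to 0.0336 CPM in all 21 libraries, and the part of other cells in the Wdr95 levels was not tested. For Wdr95, IL-2v at 5 and IL-15 at 50 IU/mL overlapped each other, and IL-15 at 5 IU/mL overlapped the naive library.

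Sgk1 was high in naive cells, low on day 3 in all conditions and back near the naive level in 3 of 6 day 10 libraries. Naive cells had 47.9 CPM (44.8 to 51.2) from 885 UMIs. On day 3 it was at 6.83 CPM without cytokine, 6.11 with IL-2 at 5 IU/mL, 5.27 with IL-2 at 50, 6.42 with IL-2v at 5, 7.54 with IL-2v at 50, 7.98 with IL-15 at 5 and 8.30 CPM with IL-15 at 50. The spread over the 6 day 3 cytokine libraries was 1.58 times, and neighbours in that order overlapped. Day 5 gave 12.4 CPM without cytokine, 21.3 with IL-2 at 5, 17.0 with IL-2 at 50, 21.9 with IL-2v at 5, 14.4 with IL-2v at 50, 14.2 with IL-15 at 5 and 20.95 CPM with IL-15 at 50. All 7 lay above every day 3 library. Day 10 gave 53.3 CPM (50.8 to 55.9) with IL-15 at 50 IU/mL, 44.3 (42.1 to 46.7) with IL-2v at 5 and 43.2 CPM (40.9 to 45.7) with IL-2 at 5, 3 libraries whose intervals overlapped the naive one. The remaining libraries were at 23.96 CPM (22.2 to 25.9) with IL-2v at 50, 22.5 (20.8 to 24.4) with IL-2 at 50 and 18.5 CPM (16.8 to 20.3) with IL-15 at 5, below the naive interval and overlapping day 5 libraries.

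**Figure D1:**
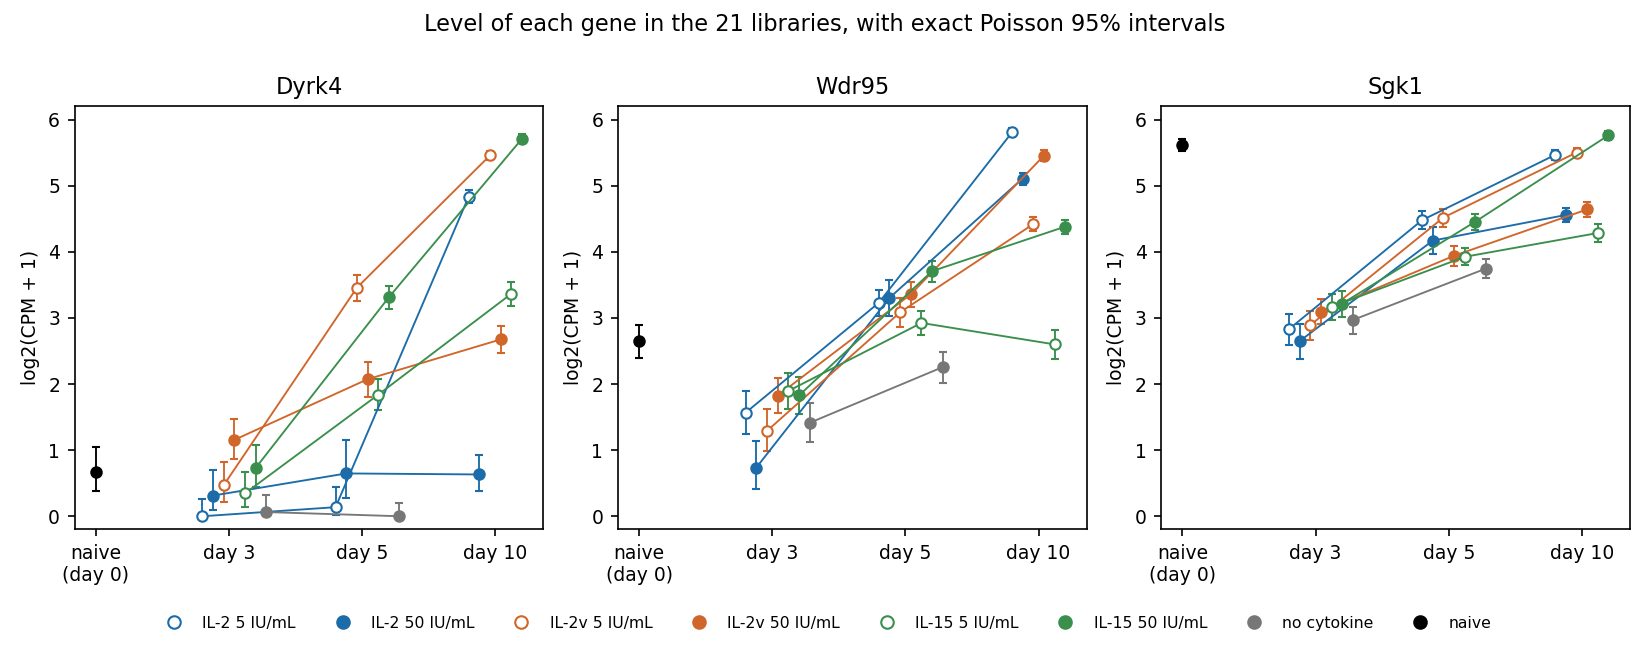
Level of Dyrk4, Wdr95 and Sgk1 as log2(CPM + 1) in each of the 21 libraries, by day, with exact Poisson 95% intervals; open points are 5 IU/mL, filled coloured points 50 IU/mL, grey points no cytokine and black points naive cells, and lines join libraries of 1 condition, which are separate samples. Dyrk4 ran from 0.550 to 51.3 CPM on day 10, and Sgk1 on day 3 lay between 5.27 and 8.30 CPM against 47.9 CPM in naive cells.

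Days were compared in 6 pairs of equal cytokine and dose as differences in log2(CPM + 1), a scale that understates changes of low genes. A gene was called higher or lower where its mean reached 20 CPM in either arm, all pairs had the same sign and the median difference was at least 1 in size. For day 10 against day 3, the comparison that chose them, the medians were 3.93 for Dyrk4 (0.32 to 4.99 over the pairs), 3.38 for Wdr95 (0.70 to 4.37) and 2.23 for Sgk1 (1.12 to 2.64). The rule called 0.87% of 5977 genes higher and 7.98% lower there. All 3 members passed the 20 CPM limit through their day 10 level alone. Eomes, a transcription factor of effector and memory CD8 T cells, lay between Wdr95 and Sgk1 at 2.63. The choice was made from the first 5 places, of which the last was the chemokine receptor gene Cxcr6 at 2.10, and Ifi214 followed just outside at 2.08. The call of Dyrk4 rested on single libraries: its day 10 mean was below 20 CPM without the pair of IL-2v at 5 IU/mL or without that of IL-15 at 50 IU/mL, and among cells lacking Mki67 and Top2a UMIs it was not called at a median of 3.96, since the pair of IL-2 at 50 IU/mL was at 0.564 CPM on day 10 and 0.594 CPM on day 3.

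Between day 5 and day 10 the 3 genes were higher in most pairs but none met the rule, which called 0.0705% of 5676 genes higher and 1.62% lower. Dyrk4 was higher in 5 of 6 pairs, with a median of 1.76 (-0.02 to 4.70). With IL-2 at 5 IU/mL it went from 2 UMIs to 820, a ratio of 276 with a counting interval of 76.2 to 2283, while with IL-2 at 50 IU/mL the ratio was 0.971 (0.356 to 3.05). As the day 10 values chose the members and all 3 reached 20 CPM through day 10 alone here too, calls under other settings are given as a description and support nothing. Dyrk4 met the rule once the pair of IL-2 at 50 IU/mL, the 1 with the opposite sign, was left out, with a median of 2.001. TMM scaling (trimmed mean of M values) also called it, as did the limit of 5% mitochondrial UMIs, leaving out cells above 2 times the median UMIs, the mean of single-cell CPM and leaving out IL-2. Wdr95 was higher in 5 of 6 pairs, with a median of 1.57 (-0.32 to 2.58). Its 1 pair in the other direction was IL-15 at 5 IU/mL, with a ratio of 0.768 (0.606 to 0.970), and without that pair it was called at a median of 1.81. Sgk1 was higher in 6 of 6 pairs with intervals apart in all 6, but its median of 0.84 (0.36 to 1.31) stayed below the size limit. Between day 3 and day 5, Dyrk4, Wdr95 and Sgk1 were higher in 6 of 6 pairs, with medians of 1.20, 1.73 and 1.38, and Dyrk4 had overlapping intervals in both IL-2 pairs. None reached 20 CPM on average in either arm, so none could be called, against 0.829% of 5912 genes called higher. The day 3 values of these pairs also entered the choice of the members, so this rise is a description and supports nothing.

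Set against naive cells, the members parted. After activation without cytokine, day 3 over naive, the ratio was 0.0755 (0.00175 to 0.519) for Dyrk4 from 1 UMI against 11, 0.317 (0.211 to 0.467) for Wdr95 and 0.143 (0.119 to 0.170) for Sgk1. Sgk1 was called lower, with a log2 difference of -2.64, where 8.31% of 6171 genes were called lower and 19.4% were called in either direction, and the other 2 were under 20 CPM. Without cytokine, day 5 over day 3, the ratio was 2.27 (1.54 to 3.41) for Wdr95 and 1.82 (1.49 to 2.22) for Sgk1, while Dyrk4 had 1 and 0 UMIs. Neither reached 20 CPM, so neither could be called, and 13.1% of 5785 genes differed by at least 1 on the log2 scale in either direction. Day 10 libraries against the 1 naive library gave a median of 3.43 for Dyrk4 (-0.04 to 5.04) and 2.12 for Wdr95 (-0.04 to 3.16), each higher in 5 of 6. Sgk1 had a median of -0.56 (-1.33 to 0.15) and was lower in 5 of 6 libraries, with intervals apart in 3. None was called, where 3.16% of 5948 genes were called higher and 5.75% lower. The same day 10 values that chose the genes enter here, and Dyrk4 and Wdr95 reached 20 CPM through them alone, so the following calls also support nothing. Each gene met the rule without the 1 library of opposite sign, Dyrk4 at a median of 4.16 without IL-2 at 50 IU/mL and Wdr95 at 2.46 without IL-15 at 5 IU/mL. TMM scaling and the 5% mitochondrial limit also called both, and 3 other settings called Dyrk4 alone and 3 called Wdr95 alone. TMM moved the median of all genes tested from -0.17 to 0.06 in day 10 against day 3 and from -0.16 to 0.04 against naive, and the medians of the members kept their directions.

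**Figure D2:**
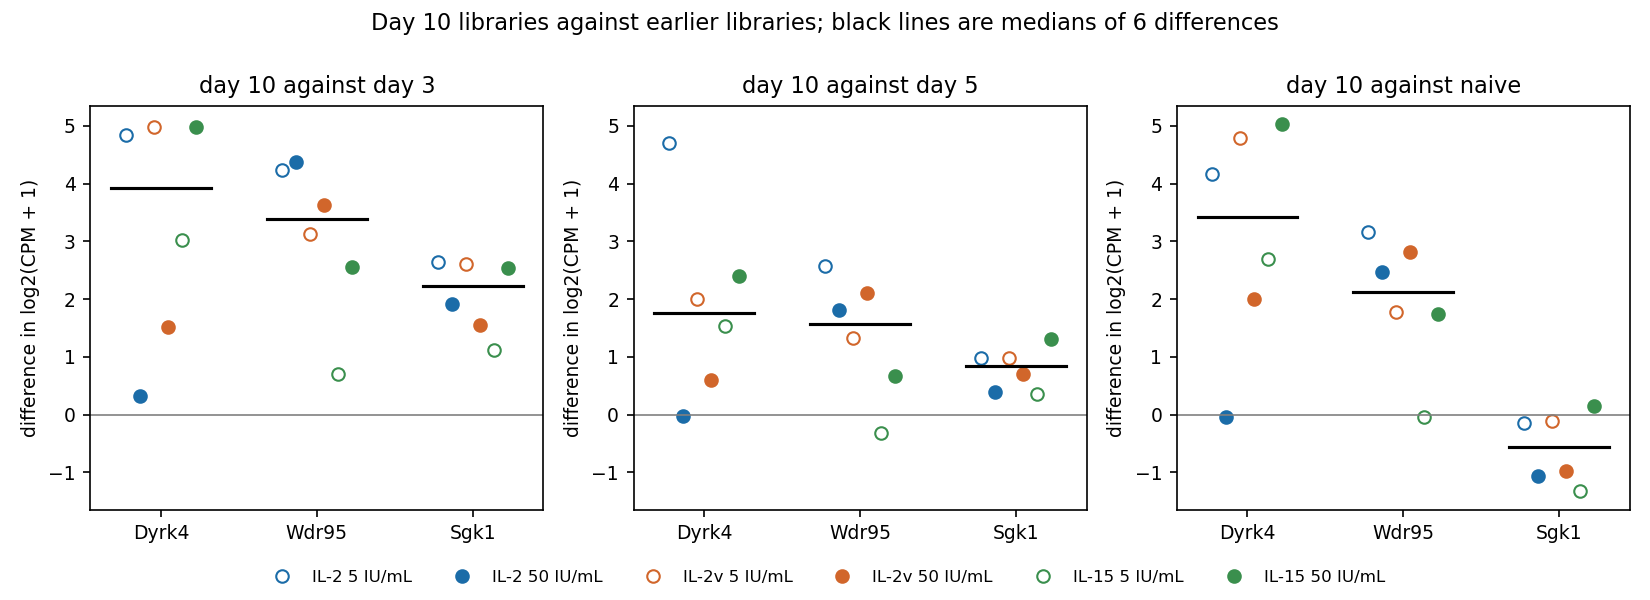
Differences in log2(CPM + 1) between each day 10 library and the library of the same cytokine and dose on day 3 or day 5, or the naive library; points are pairs and black lines their medians. Against naive cells the medians were 3.43 for Dyrk4, 2.12 for Wdr95 and -0.56 for Sgk1.

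Some day 10 shares of cells with a UMI stood on the other side of the naive value from the levels, each with a level overlapping the naive interval. Against naive cells, Sgk1 with IL-2v and with IL-2 at 5 IU/mL, Wdr95 with IL-15 at 5 and Dyrk4 with IL-2 at 50 had a lower level and a higher share on day 10. For Wdr95, Dyrk4 and Sgk1 with IL-2 the intervals of both overlapped those of naive cells, so no order is read from them. For Sgk1 with IL-2v the level overlapped too, and the share alone was apart (18.3 to 20.3 against 14.7 to 16.7). Dyrk4 was detected in 0.230% of naive cells (0.115 to 0.412) and on day 10 in 19.1% of cells with IL-15 at 50 IU/mL, 18.2% with IL-2v at 5, 10.0% with IL-2 at 5, 3.38% with IL-15 at 5, 2.48% with IL-2v at 50 and 0.304% with IL-2 at 50. For Wdr95 the naive share was 1.65% (1.31 to 2.06), and on day 10 it was 19.5% with IL-2 at 5 IU/mL, 18.3% with IL-2v at 50, 14.7% with IL-2 at 50, 9.61% with IL-2v at 5, 8.51% with IL-15 at 50 and 1.93% with IL-15 at 5. Sgk1 was detected in 15.7% of naive cells (14.7 to 16.7) and on day 10 in 21.03% with IL-15 at 50 IU/mL, 19.3% with IL-2v at 5, 16.4% with IL-2 at 5, 11.2% with IL-2v at 50, 11.1% with IL-2 at 50 and 7.30% with IL-15 at 5. Since deeper cells show more genes, every cell was also thinned to 2000 UMIs, which left out 57 to 299 shallower cells per day 10 library and 306 naive cells. Thinned day 10 shares ran from 0.192% to 9.18% for Dyrk4, from 0.834% to 10.4% for Wdr95 and from 4.08% to 9.49% for Sgk1, beside 0.157%, 0.895% and 8.48% in naive cells. The lowest Wdr95 share, with IL-15 at 5 IU/mL, was thus below the naive one after thinning. Their intervals overlapped (0.609 to 1.11 against 0.640 to 1.22), so no order is read here either. The thinned Sgk1 share with IL-2v at 5 IU/mL, 7.58%, was below the naive share with overlapping intervals (6.93 to 8.27 against 7.68 to 9.33), whereas the unthinned one was above it. At 1000 UMIs the same shares were 4.76% and 4.38%, and no order is read from them. No cell type that should lack these genes was in the libraries to give a background share. Dyrk4 was found in 0 of 6112 cells on day 5 without cytokine and in 0 of 4120 cells on day 3 with IL-2 at 5 IU/mL. With 3 counts as the limit these allow shares of cells with a UMI of up to 0.0491% and 0.0728%, for counting error only, which does not limit the share of cells that express the gene.

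Detection in single cells mostly meant 1 molecule. Of day 10 cells with a UMI, 75.6% to 100% had exactly 1 for Dyrk4, 77.7% to 89.5% for Wdr95 and 81.6% to 92.2% for Sgk1, and no cell held more than 6 of any. No tie between the genes in single cells was detectable at this depth. In the 6 day 10 libraries after thinning, 18 comparisons set the share of cells with one gene between cells with and without a UMI of another, and the intervals overlapped in 18 of 18. The widest gap for a pair of kinases was with IL-15 at 50 IU/mL, where Dyrk4 was found in 11.5% (9.04 to 14.3) of cells with Sgk1 and 8.94% (8.22 to 9.70) of cells without. In Wdr95-positive cells with IL-2v at 5 IU/mL, Dyrk4 was found in 5.99% (3.46 to 9.55), against 9.03% (8.31 to 9.80) of the others.

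**Figure D3:**
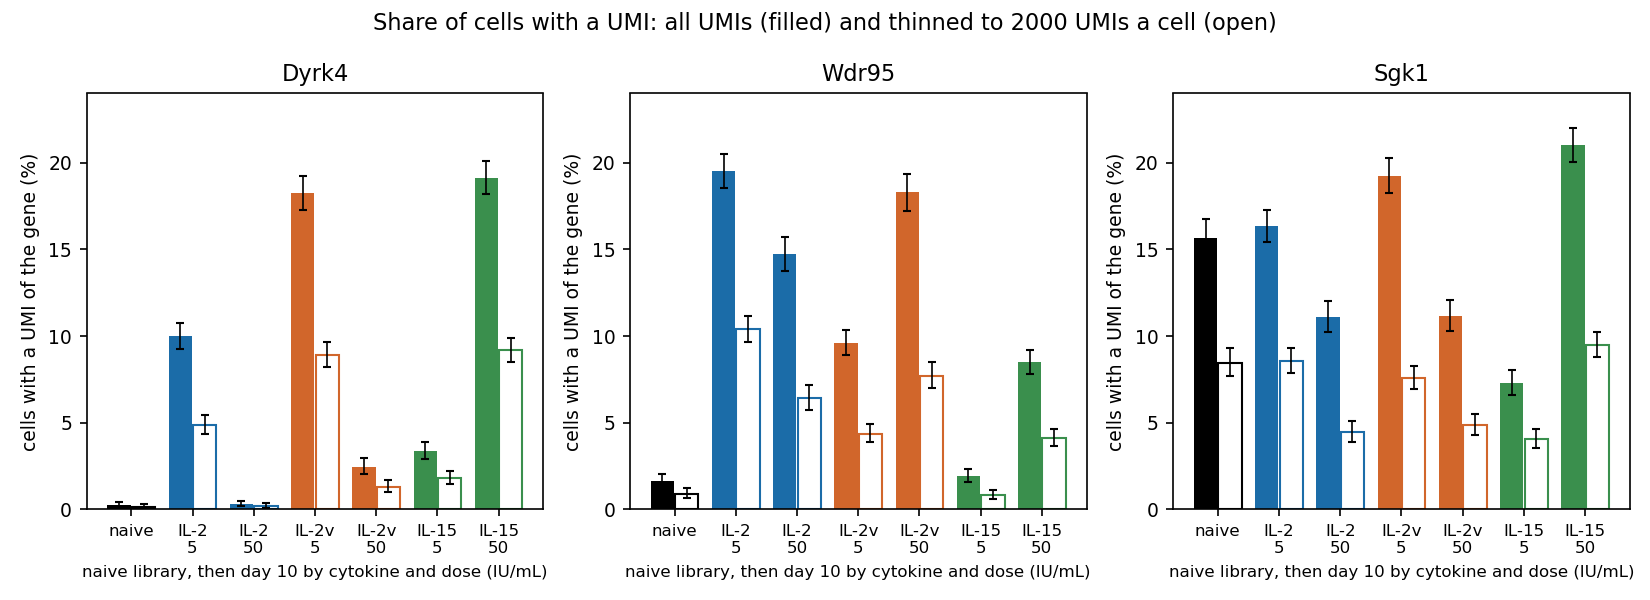
Share of cells with a UMI of Dyrk4, Wdr95 or Sgk1 in the naive library and the 6 day 10 libraries, in percent with exact binomial 95% intervals; filled bars use all UMIs and open bars cells thinned to 2000 UMIs. With IL-2 at 50 IU/mL the Dyrk4 share was 0.304%, against 10.0% at 5 IU/mL.

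On day 10 all 3 genes differed between doses, with intervals apart in 9 of 9 pairs, in directions that differed between cytokines. No share of all genes with intervals apart was computed to set beside this count. The day 10 values chose the genes, so all calls by dose here are a description and support nothing. Dyrk4 reached 20 CPM in 1 arm of each pair alone, as did Sgk1 with IL-15. Dyrk4 at 50 over 5 IU/mL had a ratio of 0.0200 (0.0111 to 0.0331) with IL-2 and 0.125 (0.105 to 0.149) with IL-2v, and was called lower in both, but it had a ratio of 5.52 (4.78 to 6.38) with IL-15 and was called higher. Sgk1 went the same way, at 0.522 (0.473 to 0.575) with IL-2, 0.541 (0.492 to 0.593) with IL-2v and 2.88 (2.59 to 3.21) with IL-15, where alone it passed the size limit. Wdr95 was at 0.610 (0.562 to 0.662) with IL-2, 2.10 (1.91 to 2.31) with IL-2v and 3.92 (3.21 to 4.81) with IL-15. Thus IL-2v went with IL-2 for the 2 kinase genes and with IL-15 for Wdr95. Of these Wdr95 ratios the one with IL-2v passed the size limit, and the one with IL-15 had no arm at 20 CPM. TMM scaling moved the median of all genes with IL-2 from -0.30 to 0.00, and the IL-2 dose differences of Wdr95 and Sgk1 were then -0.40 and -0.61. The limit of 1 on the log2 scale was passed in either direction by 21.1% of 5832 genes with IL-2, 11.2% of 5618 with IL-2v and 5.7% of 5437 with IL-15.

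Between cytokines at 5 IU/mL on day 10, IL-2v and IL-2 gave nearly the same Sgk1 level, with a ratio of 1.03 (0.950 to 1.11), and at 50 IU/mL a ratio of 1.06 (0.950 to 1.19). Dyrk4 was higher with IL-2v than with IL-2 at both doses, by 1.56 times (1.43 to 1.70) at 5 IU/mL and 9.79 times (5.75 to 17.9) at 50. The same direction held for Dyrk4 in 6 of 6 pairs over the 3 days, apart in 5, with a median of 1.13 on the log2 scale. Its mean over these pairs was under 20 CPM in both arms, as was its day 10 level at 50 IU/mL, so it could not be called in either. Over the 6 pairs the rule called 61 genes higher and 16 lower of 5839 tested. Day 3 and day 10 values chose Dyrk4, so its count of pairs is a description and supports nothing. Wdr95 with IL-2v over IL-2 was at 0.371 (0.339 to 0.406) at 5 IU/mL, where it was called lower, and at 1.28 (1.17 to 1.40) at 50. The day 10 values chose the genes, so this call is a description and supports nothing. The size limit was passed by 14.5% of 5932 genes at 5 IU/mL and by 4.94% of 5227 at 50.

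IL-15 over IL-2 at 5 IU/mL was at 0.338 (0.290 to 0.393) for Dyrk4, 0.0921 (0.0758 to 0.111) for Wdr95 and 0.428 (0.383 to 0.477) for Sgk1, all past the size limit, as were 11.6% of 5820 genes. The day 10 values chose the genes. Against IL-15 at 5 IU/mL each gene reached 20 CPM in the IL-2 or IL-2v arm alone. The calls in these comparisons with IL-15 are therefore a description and support nothing. At 50 IU/mL the 2 kinase genes stood the other way, at 93.4 (56.4 to 167) for Dyrk4 and 2.36 (2.15 to 2.60) for Sgk1, while Wdr95 was at 0.592 (0.534 to 0.656), and 21.5% of 5555 genes passed the limit. IL-2v over IL-15 at 5 IU/mL was at 4.62 (3.999 to 5.35) for Dyrk4, 4.03 (3.31 to 4.94) for Wdr95 and 2.40 (2.15 to 2.68) for Sgk1, with 17.1% of 5824 genes past the limit. At 50 IU/mL Dyrk4 was at 0.105 (0.0880 to 0.124) and Sgk1 at 0.450 (0.410 to 0.492), with Wdr95 still higher at 2.16 (1.96 to 2.38), and 14.2% of 5526 genes passed it. The day 10 libraries also differed in other ways: cells with a UMI of the proliferation genes Mki67 or Top2a made up 18.2% at 5 IU/mL and 13.4% at 50 IU/mL with IL-2. With IL-2v such cells were 40.6% at the lower dose and 25.0% at the higher, and with IL-15 they were 5.21% and 13.1%. Ribosomal protein genes took 31.96% to 42.8% of UMIs. Among cells lacking both proliferation genes, the dose differences in log2 were -4.33, -3.24 and 2.38 for Dyrk4 with IL-2, IL-2v and IL-15, -0.96, -0.84 and 1.54 for Sgk1 and -0.81, 0.68 and 1.85 for Wdr95, in the same directions as over all cells, with Wdr95 in IL-2v below the size limit.

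Within day 10 libraries, Dyrk4 and Wdr95 were lower in cycling cells, meaning those positive for Mki67 or Top2a, and Sgk1 had no common direction. Wdr95 was higher in the other cells in 6 of 6 day 10 libraries, apart in 5, and in 18 of all 21. With IL-2 at 5 IU/mL it was at 61.8 CPM (58.6 to 65.2) in the other cells and 35.1 CPM (31.0 to 39.5) in cycling cells. Dyrk4 was higher in the other cells in 6 of 6 day 10 libraries, apart in 3, and in 15 of the 19 libraries with a UMI of it. Several of these held few, such as 1 Dyrk4 UMI on day 3 without cytokine. With cycling cells defined by at least 2 UMIs of Mki67 or Top2a, Dyrk4 was higher in the other cells in 5 of 6 day 10 libraries. The exception was IL-15 at 5 IU/mL, with 4 Dyrk4 UMIs in 48 cycling cells. With IL-2v at 5 IU/mL it was at 62.2 CPM (58.4 to 66.2) against 24.5 CPM (22.2 to 27.0), the widest gap of the 6. Sgk1 was higher in the other cells in 3 of 6 day 10 libraries, apart in 2, and in 7 of 21. With IL-2v at 5 IU/mL it was at 43.5 CPM (40.3 to 46.9) against 45.1 CPM (41.9 to 48.5). Cycling cells were deeper in all 6, with medians of 4501 to 6424 UMIs against 3860 to 4958. CPM divides by the total UMIs of each set of cells, and the part of depth or of other transcripts was not tested. The split was made for the 3 members alone, so no count over all genes stands beside these.

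**Figure D4:**
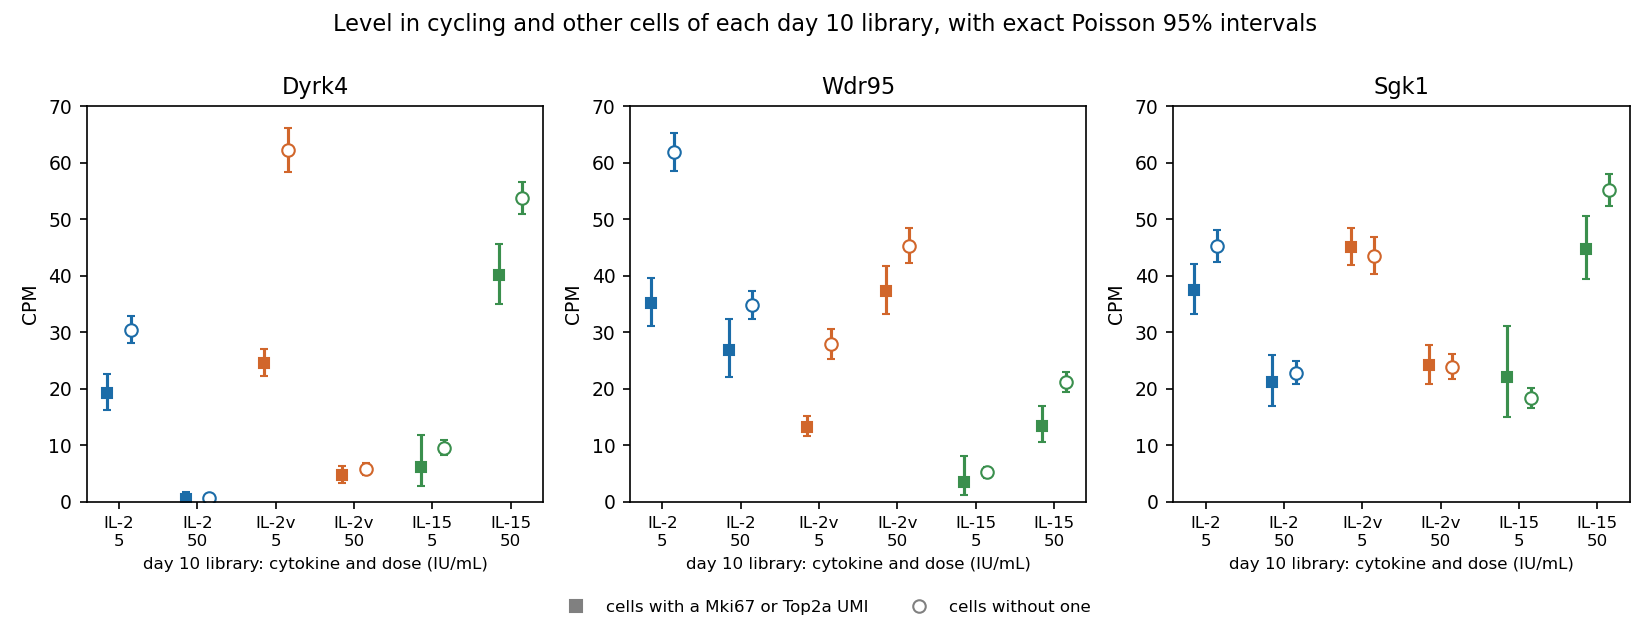
CPM of Dyrk4, Wdr95 and Sgk1 in cells with (squares) and without (open circles) a UMI of Mki67 or Top2a in the 6 day 10 libraries, with exact Poisson 95% intervals. Wdr95 lay lower in the cycling cells of all 6 libraries, for example at 13.2 against 27.8 CPM with IL-2v at 5 IU/mL.

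Wdr95 was also lower in cells with a UMI of Tcf7, which encodes TCF1, a transcription factor of naive and memory T cells. It was lower there in 21 of 21 libraries, apart in 9. With IL-2 at 5 IU/mL on day 10 it was at 40.5 CPM (37.3 to 43.9) in Tcf7-positive cells and 68.6 CPM (64.5 to 72.9) in the others. In cells with a UMI of Gzmb, the gene of the cytotoxic protease granzyme B, Wdr95 was higher in 18 of 21 libraries, apart in 7, and in 4 of the 6 day 10 libraries. The naive library held 52 cells with a Gzmb UMI, 1.09% of its cells, and Wdr95 was at 56.7 CPM (30.2 to 97.0) in these, from 13 UMIs, against 4.61 CPM (3.67 to 5.70) in the others. Those 52 cells thus had a Wdr95 level in the range of the highest day 10 libraries. Sgk1 was lower in Tcf7-positive cells in 20 of 21 libraries, apart in 6, and in the naive Gzmb-positive cells it was at 43.6 CPM (20.9 to 80.2) against 48.0 CPM (44.8 to 51.3). Dyrk4 was higher in Tcf7-positive cells in 14 of 19 libraries, apart in 2, and lower in Gzmb-positive cells in 16 of 19, apart in 2. Several of these libraries held few Dyrk4 UMIs, such as 1 on day 3 without cytokine and 15 on day 10 with IL-2 at 50 IU/mL. On day 10 Dyrk4 was higher in Tcf7-positive cells in 4 of 6 libraries, apart in 2. In Gzmb-positive cells of day 10 it was lower in 6 of 6, apart in 1. With IL-2 at 5 IU/mL on day 10 it was at 32.7 CPM (29.8 to 35.8) in Tcf7-positive cells and 22.7 CPM (20.4 to 25.2) in the others. The Tcf7 and Gzmb splits were also made for the members alone. No count over all genes stands beside these counts of libraries, which only describe the members. Gzmb-positive cells made up 66.2% and 99.3% of day 10 cells with IL-2 at 5 and 50 IU/mL. With IL-2v they were 75.7% at the lower dose and 97.7% at the higher, with IL-15 they were 0.679% and 27.7%, and the part of this mix in the dose differences was not tested.

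The genes of the SGK1 pathway are given by lists that were written with earlier results of these data known. In day 10 against day 5 the rule called 0.0705% of all genes higher and 1.62% lower, so counts of 0 among a few genes are at the background and are no result about a list. At activation it called 11.1% higher and 8.31% lower, and in day 10 against naive 3.16% and 5.75%. In day 10 against day 3 it called 0.87% and 7.98%, and in day 5 against day 3 0.829% and 2.22%. Calls of listed genes below stand beside these shares. Among SGK and AKT kinases 5 of 6 were in the tables and 3 were tested in day 10 against day 5, with 0 called. Sgk3, a kinase of endosomes, was at 25.5 CPM in naive cells and, like Sgk1, was called lower at activation, with a log2 difference of -1.58, so that 2 of the 4 genes tested were called lower there, beside 8.31% of all genes. Its day 10 levels were 8.06 to 21.6 CPM, lower than naive in 6 of 6 libraries, with a median of -0.91. Akt1 and Akt2 had medians of 0.61 and -0.26 in day 10 against day 5. Of 16 genes of PI3K, PDK1 and mTORC2, 11 were tested in day 10 against day 5 and 0 were called, with a list median of -0.28 beside -0.09 over all genes tested. Rictor, which encodes the defining subunit of mTORC2, was called lower at activation at -1.13, beside 8.31% of all genes. It was the 1 called of 11 tested there. It was also called lower in day 10 against naive at a median of -1.16, but not under TMM scaling. Its level was 120.6 CPM in naive cells, 56.7 CPM on average on day 3 with cytokine and 34.4 to 74.8 CPM on day 10. Pdpk1, the gene of PDK1, was at 53.1 CPM in naive cells and 30.4 to 35.9 CPM on day 10.

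Of 8 genes of SGK1 substrates, 7 were tested in day 10 against day 5 and 0 were called, with a list median of -0.39 beside -0.09 over all genes tested. They went both ways, from -0.94 for Ndrg2 to 0.12 for Nedd4, a ubiquitin ligase gene. Foxo1 was at 140 CPM in naive cells and 46.8 to 115 CPM on day 10. Ndrg1 and Ndrg2, 2 of the 7 tested at activation, were both called higher there, at 2.30 and 2.03, beside 11.1% of all genes. Ndrg1 was also called higher in day 10 against naive at a median of 2.45, and Ndrg2 lower in day 10 against day 3 at -1.74. Among targets of FOXO factors, Il7r, the gene of the interleukin-7 receptor alpha chain, and Klf2, a transcription factor of resting T cells, were called lower at activation at -1.69 and -1.67, as Sgk1 was. Klf2 was at 883 CPM in naive cells and 8.54 to 1016 CPM on day 10, and Il7r at 446 CPM and 2.82 to 991 CPM, and neither was called in day 10 against day 5. S1pr1, the receptor for exit from lymph nodes, was called lower at activation and in day 10 against naive at -1.43 and -1.84, the latter not under TMM scaling. It was called higher in day 5 against day 3, with mean levels of 234 and 96.9 CPM.

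Genes that answer the known triggers of Sgk1, glucocorticoids and hypertonic stress, were also examined. Of 8 glucocorticoid-responsive genes, 5 were tested in day 10 against day 5 and 0 were called, with a median of -0.67 beside -0.09 over all genes tested. Tsc22d3, the gene of the glucocorticoid-induced leucine zipper, was at 91.1 CPM in naive cells and 30.7 to 61.4 CPM on day 10, and was called lower against naive at -1.43, as was Zfp36 at -1.61. These were 2 of the 5 tested there, where 5.75% of all genes were called lower. Fkbp5 was called higher at activation, at 1.14, as were 11.1% of all genes, and Sgk1 was called lower there. Of 5 hypertonic stress genes, 4 were tested and 0 were called in any comparison by day, a count that with 4 genes is no result against the shares of all genes called. Nfat5, the osmotic stress factor, had a median of 0.13 in day 10 against day 5.

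Of 9 listed genes, the DYRK and HIPK kinases with their partner Dcaf7, 5 were tested in day 10 against day 3, where 0.87% of all genes were called higher and 7.98% lower. The 1 called higher was Dyrk4, which was chosen by that comparison, and 0 were called lower, with a list median of -0.08 beside -0.17 over all genes tested. Dyrk1a was at 45.5 CPM in naive cells and 19.95 to 26.5 CPM on day 10, and Dyrk2 was called lower at activation at -1.50. Dyrk3 was at 0 CPM in the naive library and 0.558 to 11.8 CPM on day 10. Of 60 genes with a Wdr symbol, 28 were tested in day 10 against day 3, beside the same background. Wdr95, chosen by that comparison, was called higher, and Wdr76 was called lower at -1.90. Wdr76 was called higher at activation, at 1.14, and lower in day 5 against day 3 except under TMM scaling, and its day 10 levels were 6.64 to 37.2 CPM. Wdr89 was called lower in day 10 against naive at -1.19, but not under TMM scaling, and Wdr20 at activation at -1.16.

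Of the 12 nearest genes among the 17516 symbols counted, Rad51ap1, Ndufa9 and Hsph1 reached 20 CPM in day 10 against day 5 and were not called. The others, with all 4 around Sgk1, were below it. Annotated genes outside those symbols were passed over, and Vwf, 1 of the 12, lay 1189 kb from Dyrk4. Rad51ap1, a recombination gene that lies 1.21 kb upstream of the Dyrk4 start, was at 1.79 CPM in naive cells, 49.8 CPM on average on day 3 and 12.01 CPM on day 10, with a median of -1.37 in day 10 against day 5. Ndufa9, 26.9 kb past the other end of Dyrk4, had a median of 0.11. Hsph1, a heat shock gene 2.39 kb past the end of Wdr95, was at 25.3 CPM in naive cells and 25.0 CPM on average on day 10. The closest genes of the tables to Sgk1 were more than 113 kb away, and the nearest, E030030I06Rik, was at 7.09 CPM in naive cells, 0.893 CPM on average on day 3 and 2.86 CPM on day 10.

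Across the 21 libraries each member was set against the 5495 genes (5494 for Sgk1) whose mean reached 20 CPM, by Pearson's r of log2(CPM + 1), as a description over points that share activation, day and depth. Wdr95 was most like Ccr2, a chemokine receptor gene, at r = 0.92, the calcium-binding protein gene S100a4 at 0.90, Id2, a regulator of effector CD8 T cells, at 0.88, Rbms1 at 0.88 and Nkg7, a cytotoxic granule gene, at 0.87. Ccr2 ran from 2.83 CPM with IL-15 at 5 IU/mL to 381 CPM with IL-2 at 5 on day 10, the same 2 libraries that were lowest and highest for Wdr95. Sgk1 was most like Arl4c, a small GTPase gene, at 0.90, Filip1l at 0.89, Gm26917 at 0.87, Klk8 at 0.86 and Hsd11b1 at 0.86. Hsd11b1 encodes an enzyme that regenerates active glucocorticoid, and it was at 114 CPM in naive cells, 99.99 CPM on day 10 with IL-15 at 50 IU/mL and 16.9 CPM with IL-2 at 50. Dyrk4 was most like Rps6, a ribosomal protein gene with many processed copies in the genome, at 0.87, Tnfsf8, the gene of CD30 ligand, at 0.87, Npm3 at 0.82, Resf1 at 0.80 and 1700025G04Rik at 0.79. Rps6 varied far less than Dyrk4, from 2428 to 3170 CPM on day 10, and Tnfsf8 from 21.8 CPM with IL-2 at 50 IU/mL to 119 CPM with IL-2 at 5. Among themselves the members had r = 0.66 for Dyrk4 with Wdr95, 0.72 for Dyrk4 with Sgk1 and 0.81 for Sgk1 with Wdr95. Without the naive library the last 2 were 0.83 and 0.89. The day 3 and day 10 values that chose the members enter each r, so the r among members are a description and support nothing.

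**Figure D5:**
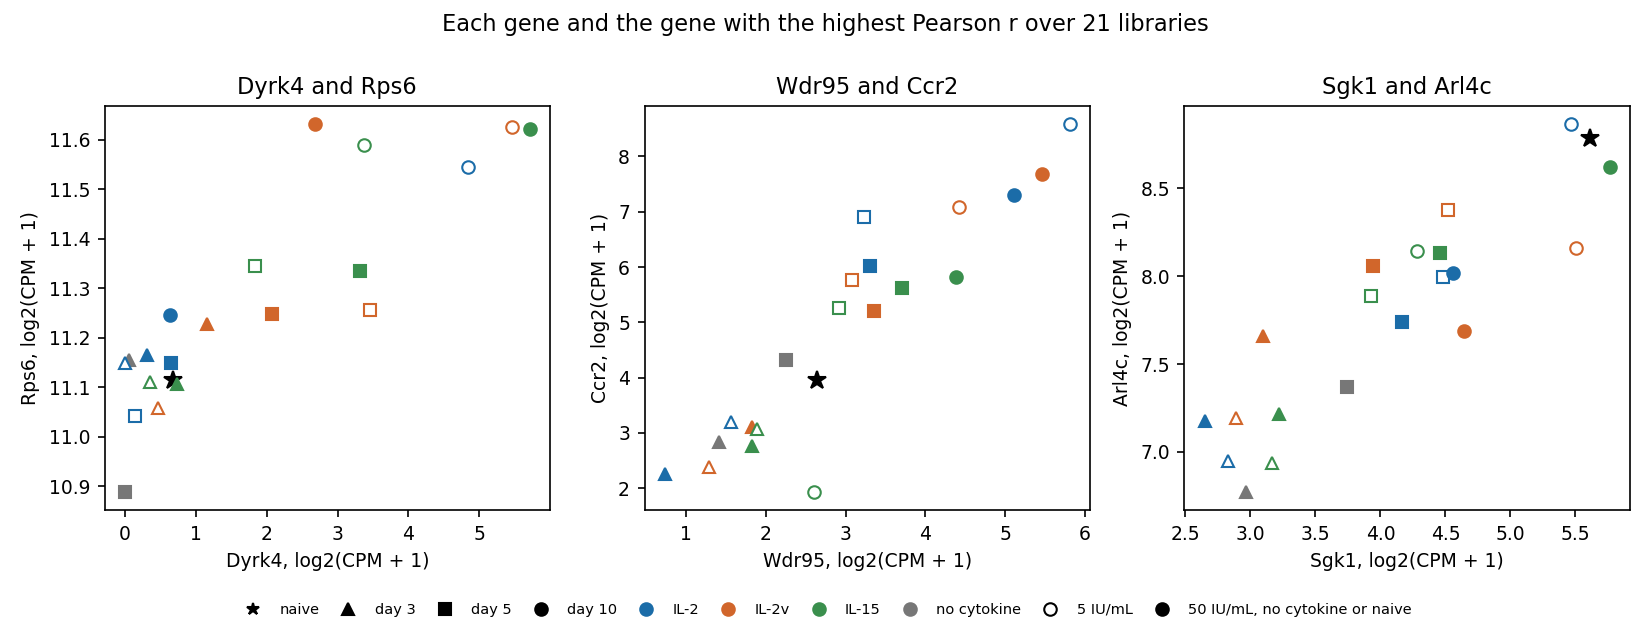
Each point is 1 of 21 libraries, with the level of Dyrk4, Wdr95 or Sgk1 across and that of the gene with the highest Pearson r up, both as log2(CPM + 1); shapes give the day, colours the cytokine and open points 5 IU/mL. For Wdr95 and Ccr2 r was 0.92, and the lowest Ccr2 point, day 10 with IL-15 at 5 IU/mL, was at 2.83 CPM.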

How the data were processed

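The authors deposited raw UMI counts, 1 table of gene symbols by cell barcodes for each of the 21 libraries. Per the submitters' processing notes, Cell Ranger, Seurat 4.0.1, Seurat 3.0.2 and mm10 were named, with no role or order given, and counting settings and doublet removal are not given in the sources used here. Per the labels, the extraction protocol describes sorting of tumour-infiltrating cells and the growth protocol describes culture, and the libraries were treated as cultured cells. Barcodes below 1000 UMIs or 500 genes, or above 10% mitochondrial UMIs, were dropped (2 in all), and possible doublets stayed in. UMIs were summed per library and divided by the library's total as CPM. CPM has exact Poisson and shares have exact binomial 95% intervals, and a limit from a count of 0 uses 3 counts. Ratios have exact conditional intervals. Without replicates, neither a model nor a p-value was used. The genes named were the 3 members, the 5 genes most like each, listed genes called by day, near neighbours and cell type markers. The members, gene lists and comparisons were chosen with earlier results of these data known. The call rule was tested on simulated counts for day 10 against day 5, with counting error alone. No variation between libraries was simulated, so the test does not cover errors from such variation. Alternatives used other cell filters, TMM (edgeR 4.0.16), other totals, a pseudocount of 10, no expression filter, and omitted cytokines. Leaving out each pair was added after the data were seen. Analyses used Python 3.11.15 and R 4.3.3. Promoters came from RefSeq (GRCm38.p6), for 2 of 3 members, and positions from GENCODE M21. Of the FOXO target and cell type marker lists, some genes are not reported here, and no count or median over those lists is given.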

Additional observations from a re-analysis of the deposited data

Results flagged for a closer look

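Wdr95 differed between IL-2v and IL-2 in opposite directions at the 2 doses. Over day 3, day 5 and day 10 its log2 difference, IL-2v minus IL-2, was below 0 in all 3 pairs at 5 IU/mL, with a median of -0.28, and above 0 in all 3 pairs at 50 IU/mL, with a median of 0.35. The intervals of the 2 libraries were apart in 1 of the 3 pairs at 5 IU/mL, that of day 10, and in 2 at 50 IU/mL. Over the 6 pairs its mean stayed under 20 CPM in both arms, so it could not be called. The difference between the doses was not tested, and no share of all genes with such a pattern was computed.

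Sgk1 responded to dose in opposite directions with IL-2 and IL-15. Its log2 difference, 50 minus 5 IU/mL, was below 0 on all 3 days with IL-2, with a median of -0.31, and above 0 on all 3 days with IL-15, with a median of 0.53. The libraries were apart on day 10 alone with IL-2, and on day 5 and day 10 with IL-15. The difference between the cytokines was not tested, and no share of all genes with such a pattern was computed.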

How the results depend on the processing

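The medians of the 3 genes over the 6 pairs by day, and their differences at activation and by dose on day 10, kept their sign under every alternative run. Over all days, some medians of Wdr95 and Sgk1 between cytokines changed sign under some settings, by less than their spread over pairs, and those that did lay from -0.20 to 0.08. Depth limits Dyrk4 most, with 0 to 29 UMIs in the day 3 libraries.

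With a pseudocount of 10 CPM, Dyrk4, Wdr95 and Sgk1 had medians of 1.41, 1.72 and 1.41 in day 10 against day 3 and 0.26, 0.62 and 0.79 in day 5 against day 3. Dyrk4 and Wdr95 had 1.01 and 1.001 against day 5 and 1.35 and 1.25 against naive. Wdr95 and Sgk1 at activation were at -0.39 and -1.78, and Dyrk4 was at 0.41 for IL-2v and 0.19 for IL-15 against IL-2. Dose differences on day 10 were then -1.83 for Dyrk4 and -0.71 for Sgk1 with IL-2, -1.78, 0.80 and -0.68 for Dyrk4, Wdr95 and Sgk1 with IL-2v. For IL-15 they were 1.67, 0.99 and 1.15. TMM scaling gave dose differences with IL-2 of -0.40 for Wdr95 and -0.61 for Sgk1. In cells lacking Mki67 and Top2a UMIs, Dyrk4 was at 1.82 in day 5 against day 3 and -3.24 for the IL-2v dose, Wdr95 at 0.68 for that dose and Sgk1 at -3.11 at activation. With totals lacking ribosomal protein and mitochondrial genes, Dyrk4 was at 4.55 in day 10 against day 3 and -4.55 for the IL-2 dose.

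Without IL-15, Dyrk4 was at 0.63 in day 5 against day 3, 3.18 in day 10 against day 3 and 1.30 against day 5, and Wdr95 at 3.93, 1.95 and 2.64 in day 10 against day 3, day 5 and naive. Without IL-2, Dyrk4 was at 2.04 in day 5 against day 3, and Wdr95 at 2.84, 1.004 and 1.76 in day 10 against day 3, day 5 and naive. Leaving out 1 pair at a time, an alternative chosen after seeing the data, gave 3.02 to 4.84 for Dyrk4 and 1.91 to 2.55 for Sgk1 in day 10 against day 3. Against naive it gave 2.69 to 4.16 for Dyrk4, 1.78 to 2.46 for Wdr95 and -0.97 to -0.15 for Sgk1.

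Over all genes, day 10 against day 3 called 52 higher and 477 lower. The counts were 98 and 282 under TMM, 81 and 1065 with no expression filter, 84 higher without ribosomal and mitochondrial totals, 30 higher with the pseudocount of 10, 137 higher without IL-15 and 256 lower in cells lacking Mki67 and Top2a UMIs. Day 10 against day 5 called 4 higher and 92 lower. Higher counts were 9 under TMM, 7 at a limit of 5% mitochondrial UMIs, 12 without ribosomal and mitochondrial totals, 1 with the pseudocount of 10, 10 with no filter, 9 without IL-2v and 71 without IL-15. Lower counts were 51 with the pseudocount of 10, 250 with no filter and 184 without IL-15. Day 10 against naive called 188 higher and 342 lower. The counts were 297 and 206 under TMM, 414 and 823 with no filter and 511 and 659 without IL-15, with 201 lower under the pseudocount of 10. The cause of these shifts was not tested.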
